A study of Mus musculus with 6 samples.

Results

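The immediate early and AP-1 genes described here are 37 genes named by their known role, of 23038 genes listed. They were found by symbol, and all 37 are listed. They were proposed with earlier results of these same libraries in view, in particular the values of Fosl2 and Jun, so their difference between the groups is given as a description. The calls of the fit over all genes are counted for them, but no p-value is given for a single member and no support is drawn from those counts. Of the 37, 31 passed the filter on low counts (mean log2 CPM, counts scaled by TMM-adjusted library totals, above 0), as did 12665 of all genes. Fosl1, Egr2, Egr3, Klf2, Npas4 and Ctgf did not pass and are given by their levels alone.

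The libraries were made from poly-A RNA of NSC-34, an established mouse line obtained by fusion of spinal cord motor neurons with neuroblastoma cells, which was grown in DMEM with FCS. Cells received control siRNA (siNC, 3 libraries) or siRNA for the Qk gene (siQk, 3 libraries). The labels speak of 3 different siRNAs for Qk without saying which library received which. Differences between siQk libraries and differences between siRNAs therefore cannot be told apart, and no other allele, agent or differentiation step is given in the labels.

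Immediate early genes are transcribed within minutes of a stimulus such as serum, growth factor or depolarisation, without new protein synthesis. Kinase cascades (ERK, JNK, p38) and calcium signals act on factors already present, CREB and the SRF ternary complex among them, and these bind the promoters of the genes. FOS and JUN proteins pair through leucine zippers to form AP-1, and JNK phosphorylates JUN. In neurons the same genes serve as markers of recent activity, and ATF3 and JUN are known for their induction after axon injury.

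Library totals ran from 43000503 to 53565950 counts, with a count for 16057 to 16516 genes. Qk, the siRNA target, was at 9.67, 8.18 and 14.9 RPKM (counts scaled by exon length and library total) in the siNC libraries and at 1.39, 1.71 and 1.10 RPKM in the siQk libraries. The groups did not overlap, and the log2 fold change of siQk over siNC was -2.997 (SE 0.34, edgeR quasi-likelihood test, adjusted p = 0.0149). Qk was the only gene called changed in that fit, 0.0079% of those tested. That call was lost without siNC replicate 1 (-3.09, adjusted p = 0.124), and edgeR's exact test called 5 genes and DESeq2 19. The 16 neuron and motor neuron markers summed to between 1086 and 1756 RPKM per library. The motor neuron markers Mnx1 and Chat were at or below 0.141 RPKM in all libraries, and the neuronal gene Stmn2 had 2 counts in all. Other motor neuron or cholinergic markers were present in every library, Isl1 at 4.75 to 9.63 RPKM, Isl2 at 2.65 to 4.96 RPKM and Slc18a3 at 1.56 to 2.29 RPKM. The 15 markers of other cell types summed to between 5.25 and 10.6 RPKM, and 13 of them were below 1 RPKM in every library. In bulk libraries such as these, fewer cells expressing a gene and less RNA per cell cannot be told apart.

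The members are short genes with few exons in the GENCODE M21 annotation of GRCm38. Their median span was 4291 bases, against 22833 bases over the tested genes with a span. A span under 5000 bases was found for 19 of 37 members (51.4%) and for 12.3% of tested genes. Single-exon genes made up 6 of 37 members (Jun, Junb, Jund, Ier2, Ier5 and Ier5l), and 2.1% of tested genes. Their median number of exons was 4, against 9, and their median transcript GC content was 54.6%, against 50.6%. The kit as named keeps no strand, so reads from genes that overlap on opposite strands cannot be told apart. Such overlap covered 62.4% of the annotated exon bases of Fosl1 (with Ccdc85b), 52.6% of Jund (with Gm11175), 22.9% of Ctgf (with Gm15270) and 19.5% of Gadd45a (with E230016M11Rik), and under 5% of Mafk and Zfp36. The length over which Egr3 was counted is 154 bases, 3.75% of its annotated exon bases, so its level rests on a small part of the gene. That share was also low for Nr4a3 (45.1%), Homer1 (49.7%), Zfp36 (50.9%), Ier5l (58.1%) and Egr1 (68.5%).

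RefSeq promoter windows (GRCm38.p6, 250 bases before to 50 after the start) were matched for 29 of the 37 members. Fosl1, Egr1, Egr3, Klf10, Myc, Ier2, Ctgf and Arc had no window. The windows were searched on both strands for sites of the factors named above. Sites farther from the start were not searched, so a member without a match may still hold a site there. The half-site of the cAMP response element, TGACG, which CREB and ATF proteins bind, was in a window of 18 of 29 members (62.1%), of 35.6% of tested genes and of 23.0% of all genes with a window. The full element, TGACGTCA, which contains that half-site on both strands, was in 2 of 29 members (Maff and Btg2, 6.90%), in 3.71% of tested genes and in 2.03% of all genes. A CArG box, the SRF site, was in 3 of 29 members (Egr2, Srf and Zfp36, 10.3%), in 1.57% of tested genes and in 1.81% of all genes. The letters TATAAA, the core promoter element that TBP binds (TATA box), were in 7 of 29 members (24.1%), in 8.12% of tested genes and in 15.7% of all genes. The AP-1 site, TGA and TCA with any base between them, was in none of the 29 members' windows, in 5.83% of tested genes and in 8.97% of all genes. Of forms with 2 bases between TGA and TCA, only TGACGTCA was searched, so others, such as TGACATCA in the Jun window, were not counted. GCGTGGGCG, the EGR site, was in 1 member (Maff), in 1.43% of tested genes and in 0.707% of all genes. CCAAT was in 13 of 29 members (44.8%), in 43.5% of tested genes and in 41.1% of all genes, and GGAATG, the TEAD site, in 4 of 29 (13.8%), in 14.1% of tested genes and in 16.6% of all genes.

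A few of these windows show how the sites lie. Fos, Fosb and Cyr61 hold half-sites and were among the members far higher in 1 siQk library. So were Jun, Klf6, Ier5 and Ier5l, whose windows hold no half-site. Srf holds CArG boxes and also a half-site. Ier5l had the widest spread of the tested members and holds neither kind of site. The windows are chr12:85473640-85473939 on the plus strand for Fos, chr7:19309996-19310295 on the minus strand for Fosb, chr3:145649936-145650235 on the minus strand for Cyr61, chr17:46556113-46556412 on the minus strand for Srf and chr2:30474150-30474449 on the minus strand for Ier5l. Each is written 5′ to 3′ on the gene's strand, and capitals mark every match to the sites named above on either strand.
Fos: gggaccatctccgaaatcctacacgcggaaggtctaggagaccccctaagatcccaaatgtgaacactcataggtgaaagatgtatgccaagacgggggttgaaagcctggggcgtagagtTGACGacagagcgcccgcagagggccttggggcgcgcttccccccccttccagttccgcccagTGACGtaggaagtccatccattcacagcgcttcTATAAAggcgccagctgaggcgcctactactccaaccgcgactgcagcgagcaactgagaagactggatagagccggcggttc
Fosb: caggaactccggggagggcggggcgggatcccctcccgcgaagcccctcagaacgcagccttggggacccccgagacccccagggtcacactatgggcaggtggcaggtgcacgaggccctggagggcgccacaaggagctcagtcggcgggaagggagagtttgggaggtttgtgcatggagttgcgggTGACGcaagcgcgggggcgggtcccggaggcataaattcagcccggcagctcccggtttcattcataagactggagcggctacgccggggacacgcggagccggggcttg
Cyr61: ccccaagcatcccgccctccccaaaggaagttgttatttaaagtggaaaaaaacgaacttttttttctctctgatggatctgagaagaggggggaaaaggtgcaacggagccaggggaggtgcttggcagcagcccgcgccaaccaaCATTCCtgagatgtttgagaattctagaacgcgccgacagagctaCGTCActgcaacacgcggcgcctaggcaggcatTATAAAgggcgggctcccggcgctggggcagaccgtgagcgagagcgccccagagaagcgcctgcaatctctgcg
Srf: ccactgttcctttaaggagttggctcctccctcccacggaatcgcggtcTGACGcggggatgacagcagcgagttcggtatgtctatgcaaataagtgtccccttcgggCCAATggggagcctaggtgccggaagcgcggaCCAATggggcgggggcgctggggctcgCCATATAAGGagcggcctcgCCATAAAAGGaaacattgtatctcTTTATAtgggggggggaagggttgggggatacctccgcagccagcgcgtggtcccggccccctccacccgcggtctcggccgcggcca
Ier5l: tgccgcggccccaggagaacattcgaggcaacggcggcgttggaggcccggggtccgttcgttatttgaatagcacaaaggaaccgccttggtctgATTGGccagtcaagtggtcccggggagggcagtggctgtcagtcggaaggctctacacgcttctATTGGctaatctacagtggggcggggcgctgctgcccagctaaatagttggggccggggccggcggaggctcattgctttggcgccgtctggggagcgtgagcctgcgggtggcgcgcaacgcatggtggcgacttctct
In Fos the half-sites begin 129 and 66 bases before the start and the TATA box 33 bases before it. Cyr61 has a TEAD site at 103, a half-site at 58 and a TATA box at 25 bases before its start. The CArG boxes of Srf begin 82 and 62 bases before the start, next to a TATA box at 38. Ier5l has CCAAT boxes at 154 and 90 bases before the start. A match is a description of letters in the window and no binding was measured. Among the 8 windowed members over 2 times as high in siQk 2 as in the other siQk libraries, 4 held the half-site, and among the other 18 tested members with a window 11 did (61.1%).

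**Figure D1:**
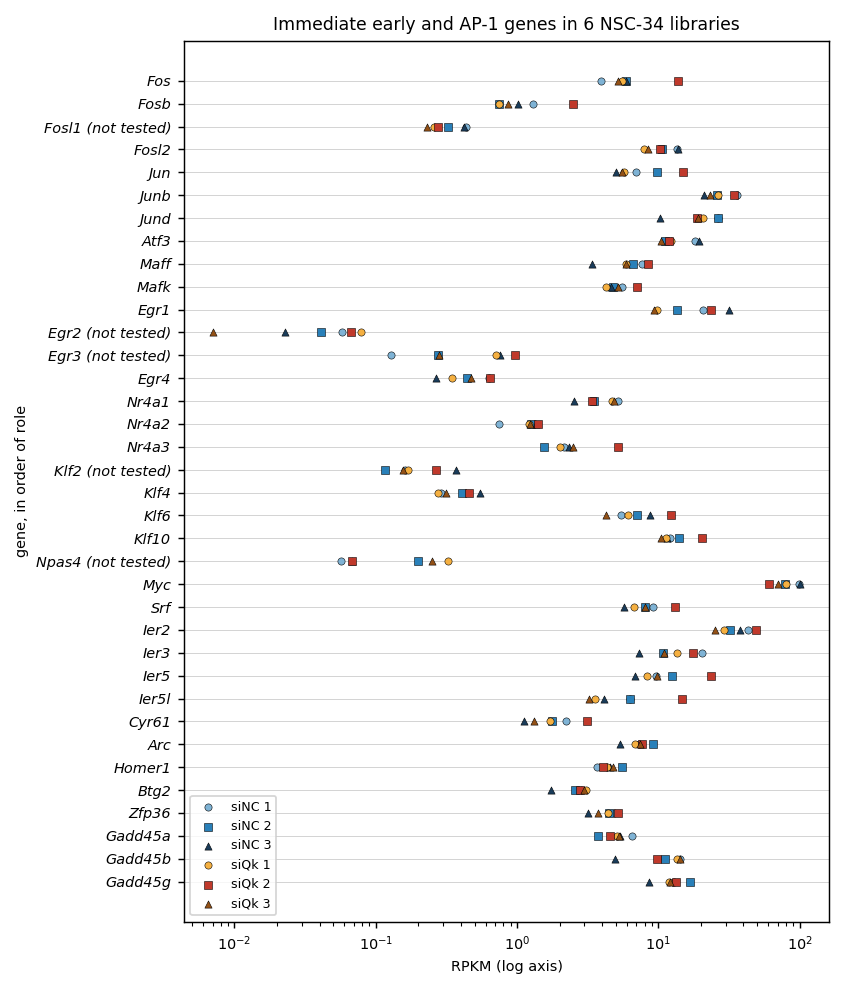
RPKM of 36 members on a log axis, 1 point per library, circles for replicate 1, squares for 2 and triangles for 3, shades of blue for siNC, and orange, red and brown for siQk 1, 2 and 3. Myc is highest, at 60.4 to 101 RPKM, and the red squares (siQk 2) lie to the right of the other points for Fos, Fosb, Nr4a3, Ier5 and Ier5l. Ctgf, at 0 in 5 libraries, is not drawn.

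The members spanned a wide range of levels. Among the 37, 6 were above 10 RPKM in every library (Myc, Ier2, Junb, Jund, Atf3 and Klf10), 8 were under 1 RPKM in every library (Fosl1, Egr2, Egr3, Egr4, Klf2, Klf4, Npas4 and Ctgf), and 10 stayed between 1 and 10 RPKM throughout. Myc, which drives growth and ribosome production, was the highest member in every library. By group means Ier2, at 25.1 to 49.5 RPKM, and Junb, at 20.96 to 35.8 RPKM, came next. Their ranges overlap, and Egr1 was above Junb in siNC 3 and Jund level with it in siNC 2.

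The FOS proteins, which bind DNA as partners of JUN proteins, differed in which library was high. Fos (Entrez 14281, GRCm38 chromosome 12, 85473890 to 85477274) was at 3.91, 5.94 and 5.92 RPKM in siNC and at 5.58, 13.8 and 5.17 RPKM in siQk. Fosb was at 1.29, 0.749 and 1.02 RPKM in siNC and at 0.744, 2.48 and 0.867 RPKM in siQk. For both genes siQk 2 was the highest library, while siQk 1 and 3 lay within or just below the siNC range. Fosl2 (FRA2; Entrez 14284, chromosome 5, 32136472 to 32157840) was at 13.5, 10.6 and 13.8 RPKM in siNC and at 7.95, 10.3 and 8.52 RPKM in siQk. All 3 siQk libraries were below all 3 siNC libraries, though siNC 2 and siQk 2 were close. Mean levels were 12.6 ± 1.77 and 8.93 ± 1.25 RPKM (SD, n = 3). On the log2 scale siQk differed from siNC by -0.53 (SE 0.18), and by -0.64 without siQk 2. Fosl1 (FRA1) was lower in every siQk library too, at 0.229 to 0.274 RPKM against 0.322 to 0.438 RPKM. It had 158 counts in all and did not pass the filter. Over 62.4% of its annotated exon bases its reads cannot be told apart from those of Ccdc85b. Fosl2 was the only 1 of the 31 tested members whose groups did not overlap. Over all tested genes, siQk was lower without overlap for 3.49% and higher for 5.35%.

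The JUN proteins, the partners of FOS in AP-1, did not share a direction between the groups, but all 3 were lowest of the 6 libraries in siNC 3. Jun (Entrez 16476, chromosome 4, 95049036 to 95052222) was at 6.91, 9.77 and 5.01 RPKM in siNC and at 5.73, 14.9 and 5.55 RPKM in siQk. Its siQk 2 value was the highest of the 6, and its other siQk values lay inside the siNC range. Junb was at 35.8, 26.2 and 20.96 RPKM in siNC and at 26.6, 34.5 and 23.3 RPKM in siQk, so that the groups lay over each other. Jund was at 26.4, 26.3 and 10.3 RPKM in siNC and at 20.6, 18.8 and 19.3 RPKM in siQk. Here siNC 3 was the library apart, and the siQk libraries were close together.

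Of the other bZIP members, Atf3, a stress- and injury-induced factor that pairs with JUN, was at 18.2, 11.2 and 19.5 RPKM in siNC and at 12.3, 11.99 and 10.4 RPKM in siQk. Its siNC 2 value lay among the siQk values, and the log2 fold change was -0.53 (SE 0.28). The small MAF protein Maff ranged from 3.38 to 8.47 RPKM and Mafk from 4.29 to 7.10 RPKM, both highest in siQk 2. Small MAF proteins lack a transactivation domain and pair with other bZIP factors.

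Among the EGR zinc finger proteins, Egr1 was at 20.9, 13.5 and 31.4 RPKM in siNC and at 9.83, 23.4 and 9.36 RPKM in siQk. Its siQk 1 and 3 values were below all siNC values, and its siQk 2 value exceeded 2 of them. That gave a log2 fold change of -0.67 (SE 0.57) over 6 libraries and of -1.23 without siQk 2, the lowest member value in either case. Egr4 was at 0.266 to 0.640 RPKM. Egr2 had 41 counts and Egr3 23 counts over the 6 libraries, too few to compare.

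Of the orphan nuclear receptors of the NR4A family, Nr4a3 followed Fos. It was at 2.14, 1.55 and 2.35 RPKM in siNC and at 2.01, 5.20 and 2.48 RPKM in siQk. Nr4a1 did not share this, at 5.20, 3.50 and 2.55 RPKM in siNC and at 4.72, 3.38 and 4.84 RPKM in siQk, with siQk 2 the lowest of its group. Nr4a2 ranged from 0.749 to 1.41 RPKM.

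Of the KLF zinc finger proteins, Klf6 was at 5.44, 7.05 and 8.71 RPKM in siNC and at 6.05, 12.3 and 4.28 RPKM in siQk. Klf10, known as a TGF-beta-induced gene, was at 12.2, 13.9 and 11.4 RPKM in siNC and at 11.3, 20.4 and 10.5 RPKM in siQk. Both were highest in siQk 2. The other siQk values of Klf10 were just below its siNC range, and those of Klf6 were inside or below it. Klf4 stayed between 0.274 and 0.550 RPKM, and Klf2 had 107 counts in all.

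Srf, which binds the CArG box and is itself serum-induced, was at 9.13, 8.06 and 5.72 RPKM in siNC and at 6.78, 13.2 and 8.11 RPKM in siQk. Myc went the other way in siQk 2, at 99.7, 79.2 and 101 RPKM in siNC and at 79.8, 60.4 and 70.4 RPKM in siQk. Its groups overlapped only through siNC 2 and siQk 1, and its log2 fold change was -0.44 (SE 0.18). Npas4, a neuronal activity factor, had 125 counts in all, at 0.0570 to 0.326 RPKM.

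The IER genes, early response genes whose best known members act in growth and survival, included the most variable member. Ier5l (Entrez 72500, chromosome 2, 30472631 to 30474199, 1 exon) was at 6.31, 6.35 and 4.13 RPKM in siNC and at 3.57, 14.8 and 3.24 RPKM in siQk. In siQk 2 it was 4.33 times the mean of the other siQk libraries, while those 2 were below all siNC libraries. Its paralogue Ier5 was at 9.60, 12.6 and 6.87 RPKM in siNC and at 8.27, 23.6 and 9.84 RPKM in siQk. Ier2 was at 43.0, 32.3 and 37.6 RPKM in siNC and at 29.4, 49.5 and 25.1 RPKM in siQk, again with siQk 2 highest and the other siQk libraries lowest. Ier3 did not show that order, being highest in siNC 1, at 20.4 RPKM, and lowest in siNC 3, at 7.30 RPKM.

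Cyr61, a secreted matrix protein induced by serum and by YAP, was at 2.21, 1.78 and 1.12 RPKM in siNC and at 1.71, 3.15 and 1.32 RPKM in siQk. Its relative Ctgf had 5 counts in siNC 1 and 0 in the other 5 libraries, where a count of 0 allows up to 0.0233 to 0.0290 RPKM (3 counts, counting error only).

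The synaptic effectors were steady. Arc, which controls AMPA receptor uptake, averaged 7.28 ± 1.90 RPKM with control siRNA and 7.30 ± 0.452 RPKM with Qk siRNA (SD, n = 3 each). Homer1, a postsynaptic scaffold whose short form is the activity-induced one, averaged 4.59 ± 0.932 and 4.39 ± 0.378 RPKM. Homer1 was counted over 5715 bases, 49.7% of its annotated exon bases, and whether that length includes the short form is not given in the sources used here.

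None of the genes of growth arrest and mRNA decay was over 2 times as high in siQk 2 as in the other siQk libraries. Btg2, which recruits deadenylases, was at 1.74 to 2.84 RPKM in siNC and at 2.77 to 3.08 RPKM in siQk. Zfp36, which binds AU-rich elements and promotes decay of early gene mRNAs, was at 4.82, 4.46 and 3.16 RPKM in siNC and at 4.38, 5.18 and 3.75 RPKM in siQk, highest in siQk 2 as Fos was but by less. Gadd45b was at 14.2, 11.2 and 4.93 RPKM in siNC and at 13.5, 9.87 and 14.2 RPKM in siQk, with siNC 3 apart. Gadd45a and Gadd45g, the other stress sensors of that family, overlapped between the groups, at 3.76 to 6.55 RPKM and at 8.64 to 16.8 RPKM over the 6 libraries.

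**Figure D2:**
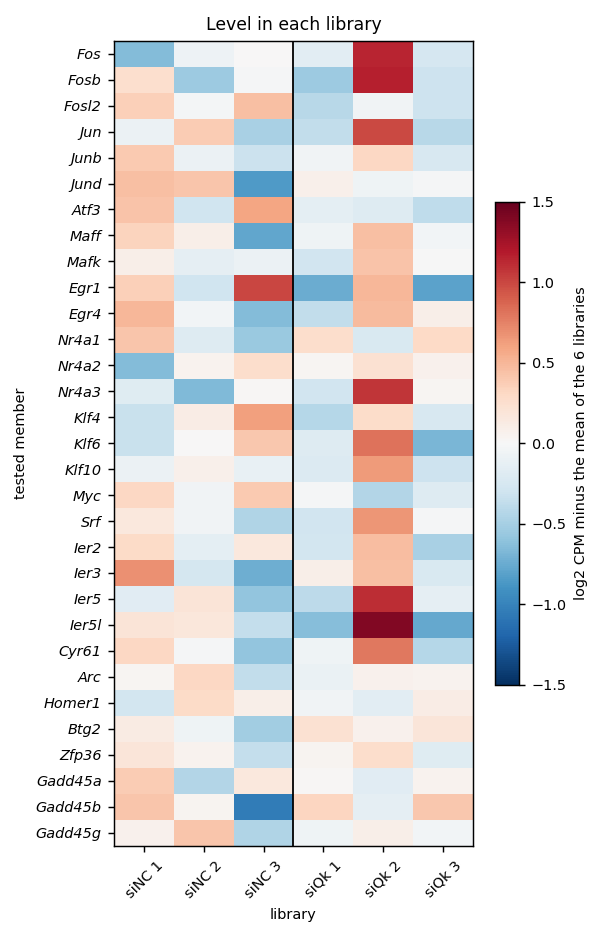
Log2 CPM of each tested member in each library, minus its mean over the 6 libraries, red higher and blue lower, with a line between siNC and siQk. The siQk 2 column is red for most members and the siNC 3 column blue for many, with medians of 0.43 and -0.32.

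What most members had in common was a high value in 1 library, siQk 2. It was the highest of the 6 libraries for 16 of 31 members (51.6%), against 28.8% of all tested genes. In all, 9 of 31 (29.0%) were over 2 times as high in siQk 2 as the mean of siQk 1 and 3 on the log2 CPM scale, against 2.35% of tested genes. These were Fos, Fosb, Jun, Egr1, Nr4a3, Klf6, Ier5, Ier5l and Cyr61, at 2.08 to 4.33 times that mean in RPKM. None of the 31 was under 0.5 times that mean, against 5.13% of tested genes. Members from the FOS, JUN, EGR, NR4A, KLF, IER and CCN families were thus among the 9. The other bZIP members, Myc, Srf, the synaptic effectors and the genes of growth arrest and mRNA decay were not. Over all 31 the median difference of siQk 2 from the other siQk libraries was 0.51 on the log2 scale, with 24 of 31 above 0. The members were chosen with values of these libraries known, so these counts are descriptions.

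Other measures of siQk 2 stand beside this. It was the deepest library (53565950 counts), and its neuron marker sum was the lowest, 1086 RPKM, as was its sum of other cell type markers, 5.25 RPKM. Its Qk level, 1.71 RPKM, was the highest of the siQk group. Over tested genes its difference from its group correlated weakly with transcript GC (Spearman's rho -0.15 across 12182 genes, which are not independent replicates). Among the members, the 9 had a median GC of 52.7% and the other 22 one of 55.4%. With trends on GC and exon length removed from each library, 11 of 31 members were over 2 times as high in siQk 2 (35.5%, against 2.48% of genes). That neuron sum was 1099 RPKM in siNC 3, but by single markers the libraries differed. Of 13 tested neuron markers, 2 were lowest of the 6 libraries in siQk 2 and 6 in siNC 3, and their median log2 CPM relative to the mean of the 6 libraries was 0.02 and -0.23. The part of depth in the result was not tested.

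**Figure D3:**
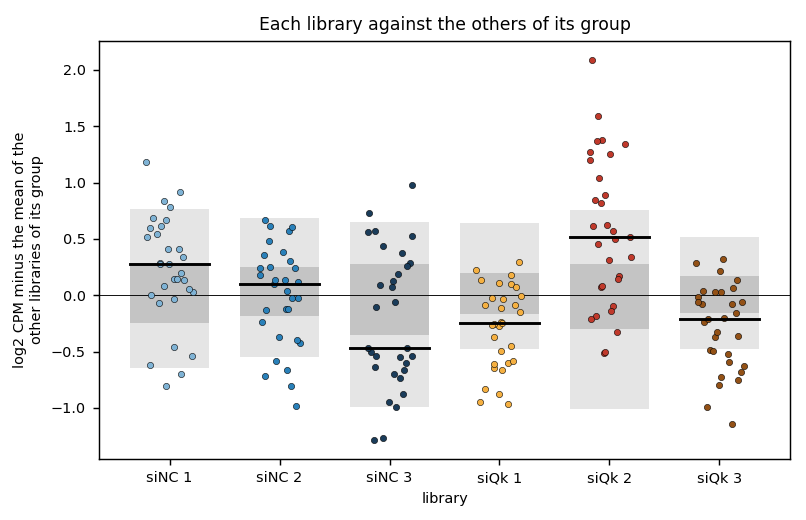
Log2 CPM of each library minus the mean of the other libraries of its group. Points are the 31 members, black lines their medians, and grey boxes the middle 50% and 90% of all tested genes. The median of the members is 0.51 in siQk 2 and -0.47 in siNC 3, the libraries farthest from 0.

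The siNC 3 library differed in the other direction. It was lowest of the 6 for 15 of 31 members (48.4%), against 30.9% of tested genes. On the log2 CPM scale Jund and Gadd45b were under 0.5 times the mean of the other siNC libraries (2 of 31, 6.45%, against 4.80% of tested genes). In RPKM, Maff, Egr4 and Ier3 were just under that limit too, which makes 5. In contrast, 8 of 31 members were highest of the siNC libraries in siNC 3, namely Fosl2, Atf3, Egr1, Nr4a2, Nr4a3, Klf4, Klf6 and Myc. In this library the difference from the group followed GC across genes (rho -0.60), and in siNC 1 it did so with the opposite sign (rho 0.56). Members lowest in siNC 3 had a median GC of 57.0%, and the other 16 one of 52.7%. After the GC and length trends were removed, 8 of 31 members were lowest in siNC 3 (25.8%), against 19.8% of genes. That is 15 before and 8 after, a change of over 1.5 times.

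**Figure D4:**
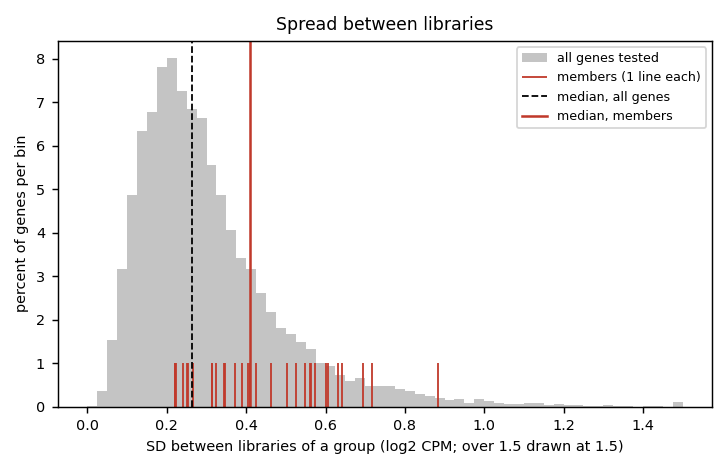
Histogram of the SD between libraries of a group, on the log2 CPM scale and pooled over both groups, for all tested genes, with a red tick per member. The medians are 0.263 for all genes (dashed) and 0.410 for members (red line).

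The members varied between libraries of a group more than most genes did. Their median SD was 0.410 on the log2 CPM scale, against 0.263 over all tested genes, and 25 of 31 lay above the latter. The widest was Ier5l, at 0.882, followed by Fosb, at 0.717, Egr1, at 0.696, and Jun, at 0.643. The SD includes siQk 2, where each of these was over 2 times the mean of the other siQk libraries. The spread is therefore not separate from that difference. Least variable were Homer1, at 0.221, Myc, at 0.221, and Fosl2, at 0.222, each below the median of all genes. Fosl2 thus differed from Fos and Fosb, members of its own family, in how closely its libraries agreed.

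Between siQk and siNC no member was called changed. The edgeR quasi-likelihood test called 0 of 31, and the edgeR exact test and DESeq2 also called 0. An unadjusted p under 0.05 was found for 2 of 31 members (Fosl2 and Myc, both lower in siQk), 6.45%, against 2.89% of tested genes. Values of Fosl2 were in view when the members were proposed, so nothing is read from that count. Fold changes were positive for 20 of 31 and negative for 11, with a median of 0.11 on the log2 scale, against 0.00 for all tested genes. They ran from -0.67 for Egr1 to 0.65 for Nr4a3. The direction rested on siQk 2. Without it the median was -0.11, 25 of 31 values were negative, and 14 had changed sign. Fos went from 0.61 to 0.00, Jun from 0.25 to -0.37, Ier5l from 0.34 to -0.73 and Klf6 from 0.06 to -0.48. Without siNC 3 the median was -0.02. Values that stayed negative with and without siQk 2 were those of Fosl2, Atf3, Egr1, Myc, Klf4, Ier2, Jund, Arc, Homer1, Gadd45a and Gadd45g.

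**Figure D5:**
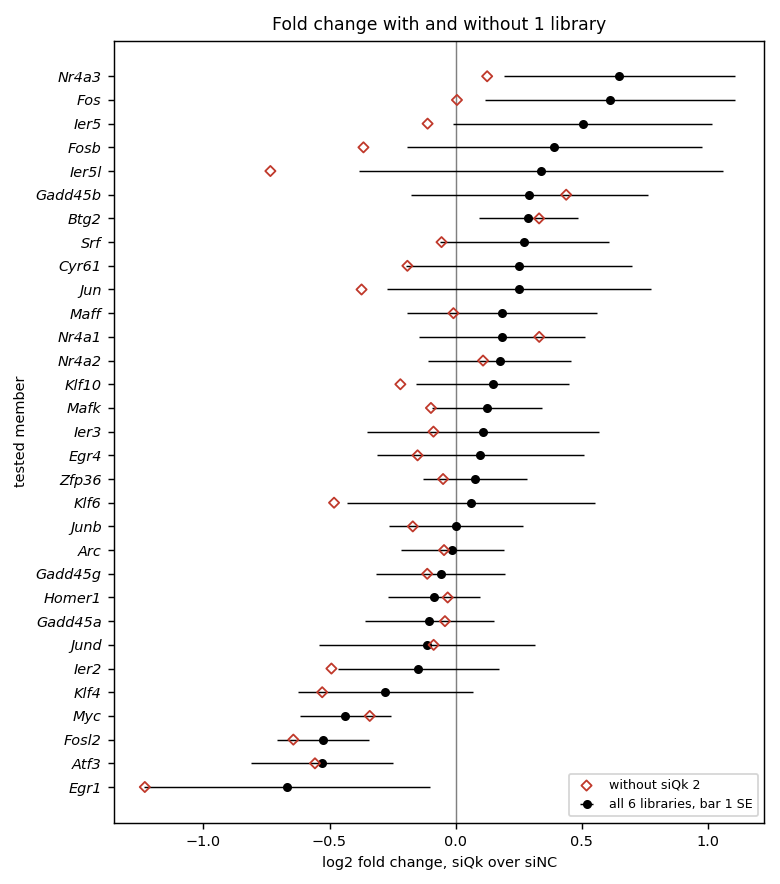
Log2 fold change of siQk over siNC for the 31 tested members, in order of size, with all 6 libraries (black, bar 1 SE) and without siQk 2 (red diamonds). Most diamonds lie left of their points, and 25 of 31 are below 0.

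Genes that act with, above and below the members were taken from lists chosen by role. The main test called none of the genes on these lists, and their adjusted p was 0.9996 throughout (edgeR quasi-likelihood test, 109 tested entries, marker lists included). By rule, the 2 genes with the lowest p of each list are named. The 12 tested bZIP partners of the AP-1 and MAF network had 10 negative values and a median of -0.21. Named from it were Jdp2, a repressor of AP-1 (log2 fold change -0.47, SE 0.36), and Nfe2l1, a proteasome gene regulator (-0.30, SE 0.20). Jdp2 was lowest in siQk 2, at 5.32 RPKM, against 8.85 to 12.9 RPKM elsewhere. Atf5, named after its values were seen, was under 0.5 times the mean of the other siQk libraries in siQk 2, at 24.0 against 63.4 and 78.6 RPKM. The 15 upstream factors, among them CREB, its coactivators and the SRF cofactors, had a median of -0.02 and the narrowest range, -0.17 to 0.25. The SRF coactivator Mkl1 (0.25, SE 0.22) and Mef2d (0.18, SE 0.11) were named by that rule.

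Feedback inhibitors of early signalling and transcription were also often highest in siQk 2. The list holds MAP kinase phosphatases, Sprouty and SPRED proteins, NAB corepressors of EGR, the inhibitors of NF-kB, cytokine and EGF receptor signalling Nfkbia, Tnfaip3, Socs3 and Errfi1, and the mRNA decay factors Zfp36l1 and Zfp36l2. Of 18 tested, 12 were highest in siQk 2, against 28.8% of tested genes, and 4 were over 2 times the mean of the other siQk libraries, against 2.35%. These 4 are named after their values were seen. Dusp6, the ERK phosphatase, was at 165, 101 and 149 RPKM in siNC and at 104, 204 and 89.0 RPKM in siQk. Spry2, an inhibitor of receptor tyrosine kinase signalling, was at 30.4, 24.8 and 19.8 RPKM in siNC and at 23.3, 46.4 and 21.1 RPKM in siQk. Spry1 and Nab2 were at 3.16 and 9.10 RPKM in siQk 2, against 1.22 to 2.03 and 4.13 to 7.41 RPKM in the other libraries. The list's median fold change was 0.02, and -0.19 without siQk 2. By the rule, Zfp36l1 (-0.56, SE 0.34) and Dusp1 (0.24, SE 0.22) are given too.

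Of 16 other activity-induced genes tested, 9 were highest in siQk 2, and the list's median fold change was -0.07. Id2, an inhibitor of bHLH factors, was at 3.89, 3.12 and 2.89 RPKM in siNC and at 5.31, 10.6 and 5.29 RPKM in siQk. The groups did not overlap, but the gene did not pass the adjusted threshold (log2 fold change 1.07, SE 0.35). Sik1, a CREB-induced kinase, was at 3.35 to 4.998 RPKM in siNC and at 5.20 to 6.72 RPKM in siQk (0.50, SE 0.19). Bdnf, named after its values were seen, was over 2 times as high in siQk 2, at 2.20 RPKM, as in siQk 1 and 3, at 0.898 and 1.09 RPKM. Per2, a clock gene named in the same way, was under 0.5 times their mean, at 1.13 against 3.11 and 2.05 RPKM.

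AP-1 target genes gave no common direction, with 5 positive and 4 negative values of 9 tested and a median of 0.03, which was -0.24 without siQk 2. Il6, a cytokine, was at 10.9, 2.84 and 9.79 RPKM in siNC and at 3.11, 2.67 and 4.18 RPKM in siQk. The groups overlapped through siNC 2 (log2 fold change -1.28, SE 0.67). Hmox1 had -0.30 (SE 0.23). Vim, Plaur and Plau, named after their values were seen, were over 2 times as high in siQk 2 as in the other siQk libraries, Vim at 602 against 314 and 264 RPKM. Mmp9 was under 0.5 times their mean, at 0.458 against 1.29 and 1.04 RPKM.

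Targets of YAP and the SRF coactivators had 5 positive and 5 negative values of 10 tested and a median of 0.00. Amotl1, an angiomotin that binds YAP, was at 2.42, 3.31 and 2.32 RPKM in siNC and at 1.6, 1.47 and 1.88 RPKM in siQk, with no overlap, and did not pass the adjusted threshold (-0.72, SE 0.18). Amotl2 had 0.65 (SE 0.35). Actg1, named after its values were seen, was at 11.4 RPKM in siQk 2, against 29.2 and 26.0 RPKM in the other siQk libraries. The 12 tested p53 targets, which share stress induction with the GADD45 genes, had 8 negative values and a median of -0.17. Ccng1 (0.60, SE 0.35) and Sesn2 (-0.42, SE 0.31) were those with the lowest p. Bbc3, named after its values were seen, was at 3.10 RPKM in siQk 2, against 6.05 and 6.86 RPKM in siQk 1 and 3. In the neuron list, Isl1, a motor neuron homeodomain factor named after its values were seen, was at 4.75 to 4.83 RPKM in siNC and at 7.80 to 9.63 RPKM in siQk (0.82, SE 0.10), and was the only gene of these lists that DESeq2 called.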

How the data were processed

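Per the labels and the study's methods, the authors selected poly-A RNA from NSC-34 cells, made TruSeq version 2 libraries, aligned read pairs with OLego to the mouse genome (mm10 in the labels) and counted genes with Quantas. The deposited files hold an expected count and an RPKM value per gene, as the authors' counter gave them; 21.9% to 22.9% of counts per library were not whole. RPKM values were rebuilt from the deposited counts, exon length and library totals, so they carry no other scaling. Each gene has 1 value, not split by isoform.

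Expected counts were rounded, scaled by TMM and tested, siQk against siNC over 6 libraries, with the quasi-likelihood test of edgeR 4.0.16 in R 4.3.3 on 12665 genes with mean log2 CPM above 0. Genes were called at p under 0.01 with an adjusted p (Benjamini-Hochberg) under 0.1. SE and differences between libraries use log2 CPM with a prior count of 2. Scripts were tested on simulated data. P-values measure the spread between 3 libraries per group, which the labels call biological replicates. Depth is 43000503 counts or more, so counting error matters only for the lowest genes.

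The members and lists were chosen with earlier results of these data known. Named were Qk, every member, and of each pathway list any gene called and the 2 with the lowest p; other names are marked as chosen after their values were seen. The full-statistics rule (groups that do not overlap, or highest library over 3 times the median) took Fosl2 among tested members. Alternatives were 3 other scalings, 2 other filters, DESeq2 1.42.0 and the edgeR exact test, a block on replicate number, each library left out, a prior count of 0.5 and shorter promoter windows. Removal of GC and length trends and the half-site search were added after seeing the data.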

Additional observations from a re-analysis of the deposited data

How the results depend on the processing

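No member was called changed in the quasi-likelihood test or under any of the 14 other settings tried. The number of genes called was 1, 5 by edgeR's exact test, 19 by DESeq2, and 0 to 1 when a library was left out. Without siNC replicate 1 Qk kept its size but not its call (-3.09, adjusted p = 0.124), and over the 6 libraries left out its value ran from -3.18 to -2.67. The median of the members was 0.11 and lay between 0.10 and 0.13 under the other scalings and filters and at 0.08 with the trends removed, but ran from -0.11 to 0.19 over the libraries left out, negative without siQk replicate 2 or siNC replicate 3. Of the 31 members, 24 changed sign under some alternative, and 5 did so with all 6 libraries kept. The list medians that moved by more than their spread between libraries were those of the bZIP partners (-0.11 without siQk replicate 2, and -0.20 to -0.15 without each other library), the AP-1 targets (-0.34 with no filter, -0.24 to 0.10 over the libraries left out, -0.24 being without siQk replicate 2) and the YAP and SRF coactivator targets (0.087 with no filter, -0.10 to 0.015 without single libraries); the cause was not tested. Members lowest in siNC 3 went from 15 to 8 with GC and length trends removed, and members over 2 times as high in siQk 2 from 9 to 11. Whether replicate numbers pair the samples was not settled. Deviations of same-numbered libraries from their groups correlated at 0.21, 0.02 and -0.17. The deviations of siNC 1 and siNC 3 also followed GC (rho 0.56 and -0.60), so these correlations cannot decide it. With a replicate block 0 members were called and the members' median was 0.08.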
